A study of Mus musculus with 11 samples.

Results

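The genes described are 8 members of the Meis, Pbx and Pknox families: Meis1, Meis2, Meis3, Pbx2, Pbx3, Pbx4, Pknox1 and Pknox2. They were chosen by name, as rows of the gene count table whose name equals one of these symbols, and are 8 of the table's 47517 names. They are not every gene of these families. All 8 passed the filter on low counts and are among the 15821 genes tested. RNA-seq counts came from forelimb buds of C57BL/6 mouse embryos at E10.5, a stage at which the bud is growing out and its regions are being set apart. Controls were Gmnn +/f; Prx-Cre (1 floxed and 1 wild-type allele, 5 libraries) and mutants were Gmnn f/f; Prx-Cre (both alleles floxed, 6 libraries). Both genotypes carried the Prx-Cre transgene, which expresses Cre recombinase in limb mesenchyme, so that ectoderm, blood and vessels of the bud are not its main target and no library lacks Cre. Gmnn encodes Geminin, a partner of the replication licensing factor Cdt1. Embryos came from 4 litters, called A to D here, and each litter held both genotypes: controls 1 and 2 with mutants 1 and 2 in A, control 3 with mutant 6 in B, control 4 with mutant 5 in C, and control 5 with mutants 3 and 4 in D.

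Meis, Pbx and Pknox proteins belong to the TALE class of homeodomain proteins, named for a loop of additional residues between the first helices of the homeodomain. Pbx proteins bind DNA together with Hox proteins, and Meis and Pknox (also called Prep) proteins bind Pbx, keep it in the nucleus and join Pbx-Hox complexes on DNA. In the early limb bud Meis genes mark the proximal part, where retinoic acid from the flank sustains them, while Fgf signals from the apical ectodermal ridge at the tip restrict them and the distal mesenchyme expresses 5′ HoxA and HoxD genes. Meis1 and Meis2 are the standard markers of the stylopod territory, the future upper arm.

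The homeobox, the part of the coding sequence that encodes the DNA-binding homeodomain, shows how closely the 3 families are related and is given for the members whose levels are contrasted most often. It was read from GENCODE M21 transcripts (GRCm38, the mm10 assembly), 5′ to 3′, as the 189 bases of 63 codons, and the capitals mark codons 27 to 29, which encode the proline-tyrosine-proline of the TALE loop.
Meis1: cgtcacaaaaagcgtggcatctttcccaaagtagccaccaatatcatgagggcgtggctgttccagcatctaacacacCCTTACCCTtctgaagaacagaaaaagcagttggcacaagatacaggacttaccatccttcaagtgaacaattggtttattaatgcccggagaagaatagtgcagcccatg
Meis2: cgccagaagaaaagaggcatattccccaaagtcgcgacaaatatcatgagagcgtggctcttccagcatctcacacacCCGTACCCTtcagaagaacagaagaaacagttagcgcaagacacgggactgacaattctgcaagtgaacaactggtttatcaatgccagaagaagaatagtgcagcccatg
Pbx2: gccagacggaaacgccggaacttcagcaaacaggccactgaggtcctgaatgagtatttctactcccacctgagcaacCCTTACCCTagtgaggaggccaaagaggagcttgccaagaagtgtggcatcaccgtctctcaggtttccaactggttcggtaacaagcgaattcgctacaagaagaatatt
Pknox1: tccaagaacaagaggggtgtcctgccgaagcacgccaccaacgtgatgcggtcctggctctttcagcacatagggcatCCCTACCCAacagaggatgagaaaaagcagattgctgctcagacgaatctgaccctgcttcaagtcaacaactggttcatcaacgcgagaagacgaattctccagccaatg
Pknox2: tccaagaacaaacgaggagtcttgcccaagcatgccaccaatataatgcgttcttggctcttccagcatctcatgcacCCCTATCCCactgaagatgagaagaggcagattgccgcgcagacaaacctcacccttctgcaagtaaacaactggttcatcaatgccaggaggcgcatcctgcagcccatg
All 8 members encode that loop. Meis1 and Meis2 share 84.1% of these bases, and although 28 codons differ, only 1 of them encodes another residue. Between Pknox1 and Pknox2 78.3% of bases are the same and 4 residues differ, and between Pbx2 and Pbx3 82.5% are the same and 2 residues differ. Across families the distance is larger: Meis1 shares 65.1% of bases with Pknox1 (19 residues differ) and 50.8% with Pbx2 (36 residues differ). No pair of members shares a stretch of 50 bases anywhere in their transcripts, and the longest identical stretch, 42 bases, is between Meis2 and Pknox2.

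In mm10 coordinates Meis1 lies at chr11:18879817-19018985 on the minus strand, Meis2 at chr2:115863064-116065839 (minus) and Meis3 at chr7:16175090-16186504 (plus). Pbx2 lies at chr17:34591266-34597400 (plus), Pbx3 at chr2:34171457-34373142 (minus) and Pbx4 at chr8:69832491-69872292 (plus). Pknox1 lies at chr17:31564749-31607684 (plus) and Pknox2 at chr9:36890982-37147322 (minus). Reads were counted over all exons of a gene, UTRs included, without regard to strand. In Meis1, 18.3% of exon bases are shared with the predicted genes Gm16140 (opposite strand) and Gm37818 (same strand), which had 0 to 3 and 3 to 12 reads per library. In Pbx2, 6.24% of exon bases are shared with Gpsm3 on the same strand, which had 64 to 166 reads.

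Control libraries held 14777833 to 19733288 counted reads, and mutant libraries 14721181 to 17034741. Gmnn, the targeted gene, was at 139 to 239 CPM (counts scaled to a common library total) in controls and 99.5 to 138 CPM in mutants, so that every mutant lay below every control and much of the transcript remained. A pair of library measures is given beside results below. The first is the mean log2 CPM of 959 genes with a run of at least 18 T in a transcript (the T-run index), which was 4.45 to 4.82 in controls and 4.26 to 4.63 in mutants; without control 5 the groups do not overlap. The second is the mean log2 CPM of Hoxa11, Hoxa13, Hoxd11, Hoxd12 and Hoxd13 (the distal Hox index), which was 0.58 to 4.66 in controls, lowest in control 5, and 1.58 to 4.48 in mutants. The longest T run in any of the 8 members is 13 bases.

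Meis1 and Pbx2 were the members with the highest levels and Pbx4 and Pknox2 those with the lowest. Compared per kb of exon, since the genes differ in length, the control means were 17.7 ± 2.16 CPM per kb for Meis1, 15.3 ± 1.18 for Pbx2, 9.26 ± 1.75 for Meis2 and 6.24 ± 0.453 for Pbx3 (SD, n = 5). Below these came Pknox1 at 4.49 ± 0.384, Meis3 at 3.22 ± 1.10, Pbx4 at 1.49 ± 0.273 and Pknox2 at 1.15 ± 0.380 CPM per kb (SD, n = 5). Pbx2 was above Meis2, Meis2 above Pbx3, Pbx3 above Pknox1 and Meis3 above Pbx4 in 11 of 11 libraries. Pknox1 was above Meis3, and Pbx4 above Pknox2, in 10 of 11. The top pair changed places between the genotypes: Meis1 was above Pbx2 in 4 of 5 controls and in 0 of 6 mutants, whose means were 11.6 ± 1.79 CPM per kb for Meis1 and 16.8 ± 1.05 for Pbx2 (SD, n = 6). The lengths used include exon bases shared with other genes, 18.3% in Meis1 and 6.24% in Pbx2. Levels over unshared bases alone were not computed.

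**Figure D1:**
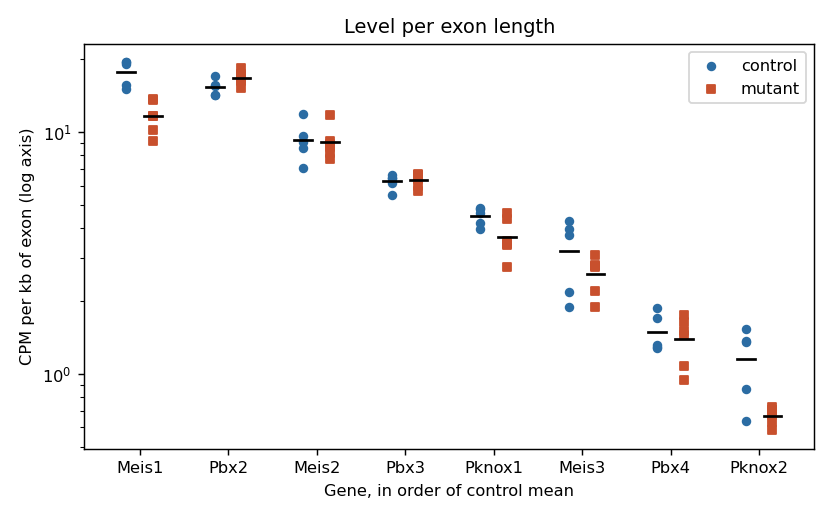
Level of each member in CPM per kb of exon on a log axis, with genes in order of the control mean. Circles are the 5 controls, squares the 6 mutants and bars the group means; Meis1 is above Pbx2 in 4 controls and below it in every mutant.

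Between genotypes, 1 of the 8 members passed the threshold of 0.05, and it was lower in mutants: Meis1 (edgeR quasi-likelihood test blocking on litter, Benjamini-Hochberg adjustment over all genes tested). Over all genes tested 2.18% were called and 1.48% were called and lower. A single call among 8 is not a result about the members as a set. At an unadjusted p under 0.05 there were 3 of 8 members, Meis1, Pknox1 and Pknox2, against 21.4% of all genes. DESeq2 called 2 of 8, Meis1 and Pknox2, against 7.55% of all genes. Meis1 was also the only member whose groups did not overlap in CPM, where 2.59% of all genes had that pattern. The median log2 fold change of all genes was 0.0038. The titles give a litter and a running label but do not say what separates libraries of 1 litter, so that p-values measure the spread between these samples. In whole buds fewer cells that express a gene and less RNA per cell cannot be told apart.

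**Figure D2:**
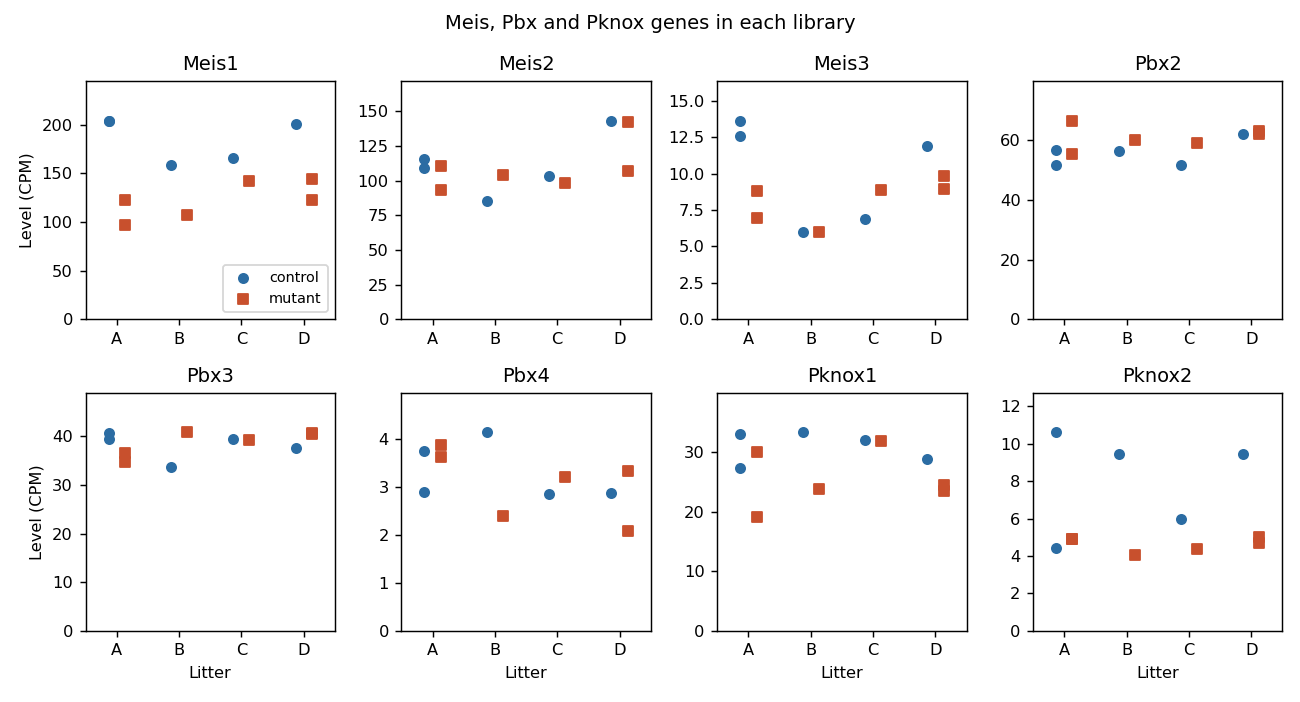
Level of each member in CPM (vertical axes, from 0, scaled per gene) in each library, by litter A to D. Circles are controls and squares mutants; for Meis1 each litter's mutants lie below its controls and all 6 lie between 96.7 and 144 CPM, under the lowest control at 158 CPM.

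Meis1, the proximal marker with the highest level among the members, was lower in every mutant bud. Controls 1 to 5 stood at 204, 204, 158, 165 and 201 CPM. Mutants ran from 96.7 to 144 CPM with a median of 122 CPM, so that the highest mutant was below the lowest control. The means were 187 ± 22.8 CPM (SD, n = 5) and 122 ± 18.8 CPM (SD, n = 6). The log2 fold change was -0.63 (SE 0.10, 95% interval -0.85 to -0.41), which is 0.645 of the control level, with a Benjamini-Hochberg adjusted p of 0.0291 in edgeR's quasi-likelihood test. Mutants were lower in 4 of 4 litters, at -0.91, -0.57, -0.22 and -0.60 in log2 CPM (A to D). Rearranging the genotypes inside litters never gave as large a mean difference (exact two-sided permutation p 0.0139, the smallest that the 72 arrangements allow).

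The direction of Meis1 held in each of 24 alternative fits, with log2 fold changes from -0.73 to -0.34, and the call held in 8 of them. Adding the T-run index to the model gave a log2 fold change of -0.34 (edgeR, Benjamini-Hochberg adjusted p 0.371), and with the distal Hox index it was -0.53 (adjusted p 0.0882). Without litter as a block it was -0.61 (adjusted p 0.0549). The call also ended when any 1 library other than control 5 or mutant 2 was left out, with log2 fold changes of -0.73 to -0.55 over the 11 such fits and a largest adjusted p of 0.140. It ended as well when any 1 of the 4 litters was left out. Calls over all genes fell in these fits too, from 345 to 2 with either index and 13 without the block. They fell to between 1 and 15 without a library whose loss ended the Meis1 call, and to 9, 3, 1 and 148 without litters A to D.

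Meis2, the close paralogue of Meis1 and also a proximal marker, showed no difference past the threshold. Controls 1 to 5 had 109, 116, 85.4, 104 and 143 CPM. Mutants ran from 93.0 to 142 CPM with a median of 106 CPM, inside the range of the controls. The means were 112 ± 21.04 CPM (SD, n = 5) and 109 ± 17.2 CPM (SD, n = 6), and the log2 fold change was -0.07 (SE 0.09, edgeR with Benjamini-Hochberg adjustment, adjusted p 0.739). Its 95% interval, -0.27 to 0.14, does not reach the value fitted for Meis1. The litters differed in sign, at -0.15, 0.28, -0.07 and -0.21 in A to D, and the exact permutation p was 0.722. The highest levels of both genotypes were in litter D, in control 5 and mutant 4.

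Meis3, the least abundant Meis gene per length, also did not pass the threshold, and its mutant mean was 2.59 ± 0.452 CPM per kb (SD, n = 6). Controls 1 to 5 had 12.6, 13.6, 6.00, 6.91 and 11.9 CPM, and mutants ran from 6.01 to 9.81 CPM with a median of 8.84 CPM. Every mutant lay inside the control range, and litter B was lowest in both genotypes. The log2 fold change was -0.31 (SE 0.16, 95% interval -0.66 to 0.05, edgeR with Benjamini-Hochberg adjustment, adjusted p 0.305). Litters A to D gave -0.74, 0.0035, 0.36 and -0.35, and the exact permutation p was 0.306.

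The 3 Pbx genes among the members, which encode partners that both Hox and Meis or Pknox proteins bind, gave no call. Pbx2 was the most abundant of the 3 per length, and its levels in controls 1 to 5 were 51.6, 56.7, 56.3, 51.8 and 62.1 CPM. Mutants ran from 55.4 to 66.6 CPM with a median of 61.2 CPM, and 3 of the 6 were above the highest control. The means were 55.7 ± 4.31 CPM (SD, n = 5) and 61.1 ± 3.84 CPM (SD, n = 6), with a log2 fold change of 0.12 (SE 0.07, 95% interval -0.04 to 0.28, edgeR with Benjamini-Hochberg adjustment, adjusted p 0.362). The mutant mean was above the control mean in 4 of 4 litters, by 0.17, 0.10, 0.19 and 0.014 on the log2 CPM scale in A to D (exact permutation p 0.0972). Gpsm3, which shares exon bases with Pbx2, had a log2 fold change of 0.42 (edgeR with Benjamini-Hochberg adjustment, adjusted p 0.228).

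Pbx3 had the fold change nearest to 0 among the members. Its levels were 40.7, 39.3, 33.6, 39.4 and 37.6 CPM in controls 1 to 5, and 34.7 to 40.8 CPM with a median of 39.8 CPM in mutants. The means, 38.1 ± 2.77 CPM (SD, n = 5) and 38.7 ± 2.52 CPM (SD, n = 6), differed by less than the spread between libraries. The log2 fold change was 0.02 (SE 0.08, 95% interval -0.16 to 0.19, edgeR with Benjamini-Hochberg adjustment, adjusted p 0.936).

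Pbx4 was detected at a low level, with 31 to 76 reads per library. It stood at 2.91, 3.76, 4.14, 2.85 and 2.87 CPM in controls 1 to 5, and at 2.08 to 3.88 CPM with a median of 3.27 CPM in mutants. The groups overlap, and the log2 fold change of -0.07 had a wide 95% interval of -0.53 to 0.39 (SE 0.21, edgeR with Benjamini-Hochberg adjustment, adjusted p 0.892). That interval includes the 0.12 fitted for Pbx2, which did not pass the threshold either.

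The Pknox genes encode relatives of Meis that also bind Pbx. Pknox1, which is widely expressed in embryos, had 33.1, 27.4, 33.3, 32.0 and 28.9 CPM in controls 1 to 5. Mutants ran from 19.1 to 31.9 CPM with a median of 24.1 CPM, and 4 of the 6 were below the lowest control. The means were 30.9 ± 2.65 CPM (SD, n = 5) and 25.4 ± 4.70 CPM (SD, n = 6). The log2 fold change was -0.27 (SE 0.12, 95% interval -0.53 to -0.01), with an unadjusted p of 0.0429 and a Benjamini-Hochberg adjusted p of 0.220 in edgeR, so that it did not pass the threshold. Litters A to D gave -0.33, -0.48, -0.0020 and -0.27, and the exact permutation p was 0.0694.

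Pknox2, the least abundant member per length, had the most negative fold change of the 8 and lay close to the threshold. Controls 1 to 5 had 4.42, 10.6, 9.43, 5.98 and 9.46 CPM. Mutants lay in a narrow band from 4.05 to 5.04 CPM with a median of 4.80 CPM, below every control but control 1. The means were 7.98 ± 2.64 CPM (SD, n = 5) and 4.66 ± 0.380 CPM (SD, n = 6). The log2 fold change was -0.79 (SE 0.21, 95% interval -1.25 to -0.33), with an unadjusted p of 0.0028 and a Benjamini-Hochberg adjusted p of 0.0671 in edgeR. It passed in 3 of 24 alternative fits: DESeq2 (adjusted p 0.0121), edgeR without control 1 (-0.96, adjusted p 0.0464) and edgeR without the filter on low counts (adjusted p 0.00042). In the other 21 it did not pass, among them the model that adds the T-run index (-1.07, adjusted p 0.354), the fit without control 2 (-0.62, adjusted p 0.155) and the fit without control 3 (-0.69, adjusted p 0.239). Within litter A, control 1 at 4.42 CPM lay below mutants 1 and 2, at 4.92 and 4.90 CPM, and control 2 lay above them. The mutant mean was lower in 4 of 4 litters, at -0.47, -1.20, -0.44 and -0.94 in A to D (exact permutation p 0.0417). That permutation result passed in 4 of 18 alternatives. Those without litter A, litter D or control 5 had too few arrangements to pass at any difference. Counts were 64 to 206 reads per library.

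**Figure D3:**
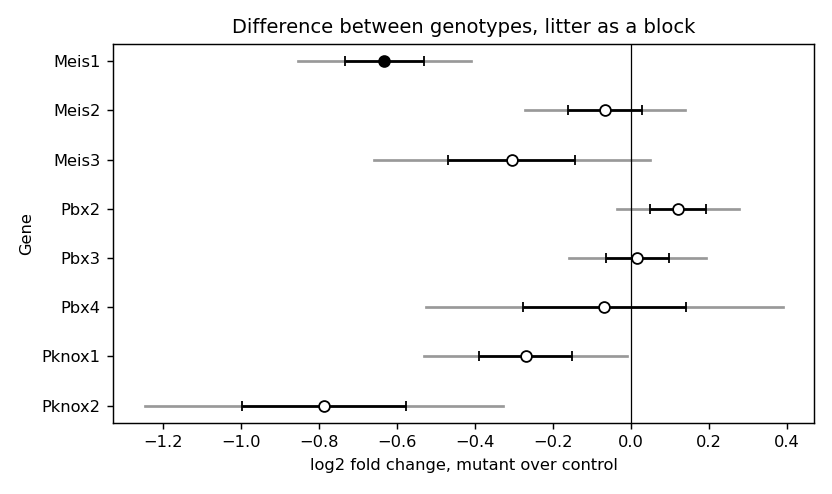
Log2 fold change of each member, mutant over control, from the fit with litter as a block; black bars are 1 SE, grey bars the 95% interval, and the filled circle passed the threshold. Meis1 at -0.63 is filled, and Pknox2 at -0.79 has a wider interval and is open.

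The balance between members does not depend on how libraries are scaled to each other. There were 1.87, 1.76, 1.85, 1.60 and 1.404 reads of Meis1 per read of Meis2 in controls 1 to 5, and 1.02 to 1.44 in mutants. The means were 1.70 ± 0.196 (SD, n = 5) and 1.13 ± 0.161 (SD, n = 6), and the groups overlap through mutant 5 and control 5. Within litters the log2 ratio differed by -0.76, -0.85, -0.15 and -0.38 in A to D (exact two-sided permutation p 0.0139). The ratio was thus lower in mutants in 4 of 4 litters. It was chosen after the levels of both genes had been seen, so that its p is not separate support. As a share of the summed level of the 3 Meis genes per kb, Meis1 was 59.0% ± 2.76 in controls (SD, n = 5) and 49.9% ± 2.63 in mutants (SD, n = 6). Meis2 was 30.6% ± 2.63 and 39.0% ± 3.15, and Meis3 was 10.4% ± 2.29 and 11.1% ± 1.39. The sum itself was 30.2 ± 4.67 CPM per kb in controls (SD, n = 5) and 23.3 ± 3.20 in mutants (SD, n = 6).

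Controls had 2.81 to 3.95 reads of Meis1 per read of Pbx2 and mutants 1.75 to 2.41, with no overlap. The means were 3.36 ± 0.433 (SD, n = 5) and 2.004 ± 0.287 (SD, n = 6), and the mean within-litter difference was -0.69 on the log2 scale (exact permutation p 0.0139). Reads of Pknox2 per read of Pknox1 were 0.264 ± 0.103 in controls (SD, n = 5) and 0.189 ± 0.0423 in mutants (SD, n = 6), and that difference did not pass (mean within-litter log2 difference -0.50, exact permutation p 0.111). These 3 ratios were chosen after the levels had been seen, and their p-values are not adjusted.

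**Figure D4:**
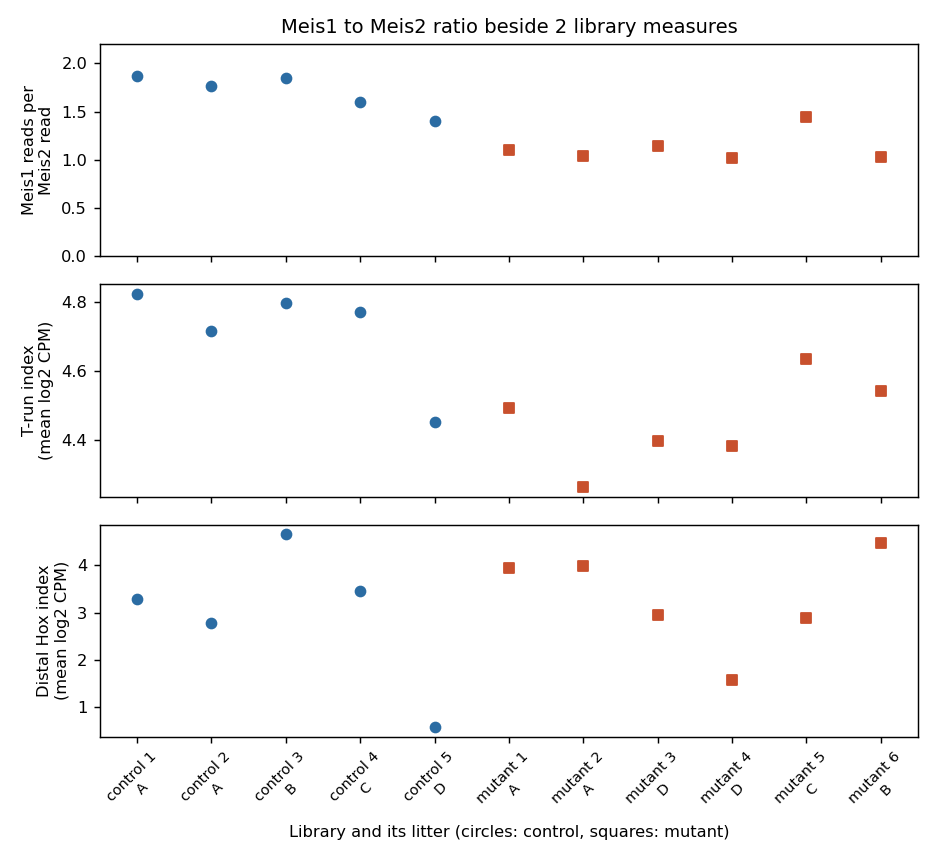
Reads of Meis1 per read of Meis2 in each library (top, axis from 0), with the T-run index (middle) and the distal Hox index (bottom), both as mean log2 CPM; circles are controls and squares mutants. Control 5 has the lowest ratio, T-run index and distal Hox index of the controls, and mutant 5 has the highest ratio and T-run index of the mutants.

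The extremes of the Meis1 to Meis2 ratio and of the T-run index fell in part in the same libraries. Among controls, control 5 was lowest in both, at 1.404 and 4.45, and control 1 highest in both, at 1.87 and 4.82. Among mutants, mutant 5 was highest in both, at 1.44 and 4.63. The lowest mutants differed: mutant 4 for the ratio, at 1.02, and mutant 2 for the T-run index, at 4.26. Control 5 was also lowest in the distal Hox index, at 0.58. The part of the T-run index in the difference between genotypes was not tested beyond the fit with it as a covariate.

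**Figure D5:**
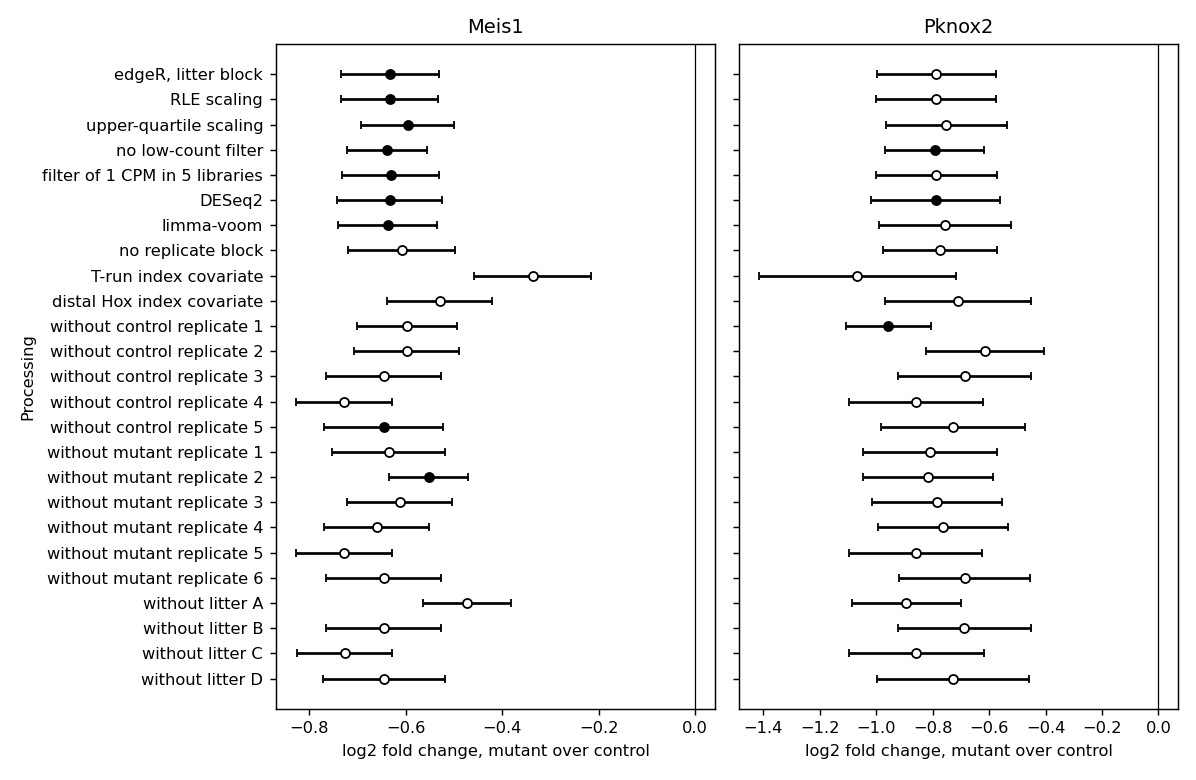
Log2 fold change of Meis1 (left) and Pknox2 (right) with 1 SE under each processing alternative; filled circles passed the threshold of 0.05. Every value is below 0, and the value of Meis1 nearest to 0 is -0.34, from the model that adds the T-run index.

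Between litters, given genotype, 0 of the 8 members passed (edgeR quasi-likelihood test on 3 litter coefficients, Benjamini-Hochberg adjustment), where 0.0885% of all genes tested did. At an unadjusted p under 0.05 there were 2 of 8, against 13.5% of all genes: Meis2 (p 0.0226, adjusted p 0.293) and Meis3 (p 0.0233, adjusted p 0.296). Whether the genotype difference itself differed between litters was tested with an interaction term, and 0 of 8 members passed, as did 0% of all genes (edgeR, Benjamini-Hochberg adjustment). The interaction had an unadjusted p under 0.05 for 605 of the 15821 genes tested and for no member. Its fit left 3 residual degrees of freedom, and litters B and C held 1 library of each genotype. It could therefore miss differences between litters and does not show that the litters agree. The smallest unadjusted member p was 0.0635, for Meis3, and Meis1, with -0.91 in litter A and -0.22 in litter C, had 0.100. DESeq2 also gave 0 members for the interaction.

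Genes were ranked by how closely their log2 CPM followed that of Meis1 or Meis2 over the 11 libraries, among 8546 genes with a mean of at least 10 CPM, as a description. Closest to Meis1 were Mtif2 (Pearson r 0.943), Nr2f2 (0.933), Pja1 (0.932), Tnfaip1 (0.923) and Gigyf1 (0.918). Of these Nr2f2, a nuclear receptor also called COUP-TFII, fell from 170 to 121 CPM (log2 fold change -0.49, edgeR with Benjamini-Hochberg adjustment, adjusted p 0.0353). Gigyf1 fell as well (log2 fold change -0.33, adjusted p 0.0454). Mtif2, Pja1 and Tnfaip1 did not pass in the same test (adjusted p 0.0882, 0.0638 and 0.0808), and 2.18% of all genes were called. Genes chosen for following Meis1 are likely to be lower in mutants by that choice, so these calls are not separate support. Closest to Meis2 were Plxna2 (0.929), Adamts1 (0.906), Flnc (0.901), Nrip1 (0.895) and Shroom3 (0.889), none of which passed. The libraries share genotype, litter and the T-run index, all of which enter such a correlation. Between members, Meis1 had r of 0.40 with Meis2, 0.68 with Pknox1, 0.67 with Meis3, 0.61 with Pknox2 and -0.35 with Pbx2.

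In a list gathered here as proximal limb genes, 1 of 10 tested passed and was lower. The list median log2 fold change was -0.16 against 0.0038 over all genes. The gene that passed was Lhx9, a LIM homeobox gene of the limb mesenchyme. Its means were 249 ± 32.1 CPM in controls (SD, n = 5) and 178 ± 24.4 CPM in mutants (SD, n = 6). The log2 fold change was -0.50 (edgeR with Benjamini-Hochberg adjustment, adjusted p 0.0406). Position in the bud was not measured, so that this call is not a result about proximal identity. In the retinoic acid pathway list, which holds genes that act for and against the signal, 2 of 15 tested passed, both lower, and the median was 0.0040. Stra6, the cell-surface receptor for retinol uptake, fell from 63.9 to 43.7 CPM (log2 fold change -0.58, adjusted p 0.0336). Dhrs3, a retinaldehyde reductase, fell from 93.2 to 61.9 CPM (log2 fold change -0.58, adjusted p 0.0468). Of the ridge Fgf and distal response genes, a list of Fgf ligands, receptors, targets and feedback inhibitors, 1 of 15 passed and was lower, and the median was 0.09. Spry2, a feedback inhibitor of Fgf signalling, fell, with means of 181 ± 83.4 CPM in controls (SD, n = 5) and 63.1 ± 32.9 CPM in mutants (SD, n = 6), at a log2 fold change of -1.39 (adjusted p 0.0390). Dhrs3 and Spry2 carry T runs of 19 and 38 bases, and in the model that adds the T-run index the log2 fold changes of Lhx9, Stra6, Dhrs3 and Spry2 were -0.32, -0.46, -0.15 and -0.32. None of these 4 calls held in that fit, where calls over all genes fell from 345 to 2. That loss is therefore not particular to these genes. The 4 calls held in 9, 10, 7 and 9 of 24 alternatives. Before adjustment p was under 0.05 for 2 of 10 proximal, 6 of 15 retinoic acid and 4 of 15 ridge Fgf and distal response genes, against 21.4% of all genes. Without the low-count filter 3, 4 and 2 genes of these lists passed, in a fit where the calls over all genes rose from 345 to 1566.

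Of the Hox genes whose proteins bind DNA with these cofactors, 0 of 9 in the 5′ HoxA and HoxD list and 0 of 11 in the 3′ list passed, with medians of 0.15 and 0.00083. In the 5′ list, Hoxa11 was at 19.0 CPM in controls and 25.8 in mutants (log2 fold change 0.53, edgeR with Benjamini-Hochberg adjustment, adjusted p 0.0546) and Hoxd13 at 16.1 and 20.1 CPM (0.70, adjusted p 0.224). In the 3′ list, Hoxd4 was at 2.14 and 3.54 CPM (0.73, adjusted p 0.0944). Before adjustment 3 of 9 genes of the 5′ list and 1 of 11 of the 3′ list had p under 0.05, against 21.4% of all genes. Without the low-count filter 4 and 2 passed, in the fit where 1566 genes were called over all genes. Other TALE homeobox genes gave 0 of 7 passed (median -0.09), with Mkx at 5.78 and 3.45 CPM (-0.56, adjusted p 0.232) and Irx4 at 1.36 and 0.867 CPM (-0.62, adjusted p 0.448). Partners of Hox and TALE proteins in transcription gave 0 of 10 passed (median 0.04), with the coactivator Crebbp at 263 and 219 CPM (-0.23, adjusted p 0.127) and Ash2l, a subunit of histone H3K4 methyltransferase complexes, at 73.8 and 83.3 CPM (0.18, adjusted p 0.135). In these last lists 1 of 7 and 2 of 10 genes had an unadjusted p under 0.05, against the same share of all genes, and none passed without the low-count filter.

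Marker levels of the cells in a bud were read beside these values. All 8 limb mesenchyme markers were detected in every library, as the tissue label implies, and their summed level was 523 to 672 CPM in controls and 568 to 648 in mutants. Its members did not all lie on the same side: control and mutant means were 254 and 249 CPM for Prrx1, 41.2 and 49.3 for Prrx2, 54.2 and 65.7 for Twist1, 38.7 and 48.7 for Lhx2, 14.6 and 18.8 for Hand2, 21.8 and 24.4 for Fgf10, 87.4 and 83.3 for Msx1, and 95.3 and 76.5 for Tbx5. Of 6 neural tube markers only Tubb3 was tested (34.8 to 58.9 and 26.2 to 54.8 CPM), and Olig2 had 0 reads in all libraries, Sox1 had 1, Neurog2 5, Pax6 22 and Sox2 42 reads in total. Muscle precursor markers summed to 55.9 to 92.1 CPM in controls and 53.8 to 108 in mutants, those of limb ectoderm and ridge to 199 to 423 and 242 to 335, and those of endothelium to 173 to 278 and 169 to 261. Neural crest and Schwann precursor markers summed to 23.9 to 48.4 CPM in controls and 17.7 to 25.5 in mutants. Macrophage markers summed to 9.11 to 36.0 and 16.7 to 53.4 CPM, and red blood cell markers to 12846 to 32967 and 16062 to 55137 CPM. No gene of any of these 8 lists passed the threshold in edgeR with Benjamini-Hochberg adjustment. Before adjustment p was under 0.05, against 21.4% of all genes, for 5 of 8 mesenchyme markers tested (median log2 fold change 0.18), 3 of 6 macrophage markers (0.65), 2 of 4 neural crest markers (-0.49), 2 of 6 muscle precursor markers (0.24) and 1 of 8 ectoderm markers (-0.15). It was under 0.05 for 0 of 6 endothelial (0.011), 0 of 6 red blood cell (0.44) and 0 of 1 neural tube markers (-0.22). The part of cell content in the Meis1 difference was not tested.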

How the data were processed

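Gene-level RNA-seq from 11 forelimb bud libraries was used. The deposited table holds unnormalized counts for every gene name, produced by the authors with featureCounts from mm10 alignments and GENCODE M9 exons, at a mapping quality of at least 10 and without regard to strand, per the file headers. STAR 2.5.4b is named in the submitters' processing notes, and libraries were depleted of ribosomal RNA, with RNA of low integrity rejected, per the labels' protocols. The design text speaks of 6 matched pairs, and 11 libraries were analysed here.

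From the counts, edgeR 4.0.16 (R 4.3.3) kept 15821 genes by filterByExpr (99.9% of counts), scaled libraries by TMM and ran the two-sided quasi-likelihood test, blocking on litter. P-values were Benjamini-Hochberg adjusted over all genes tested at a threshold of 0.05. The biological coefficient of variation was 16.3%. CPM are counts scaled by the TMM-adjusted totals, and log2 CPM used a prior count of 2. Within-litter differences of log2 CPM were tested by exact permutation of genotypes within litters. DESeq2 1.42.0 and limma 3.58.1 were alternatives, and the fit was tested on simulated data. The simulation had no litter effect, a dispersion common to all genes and changes larger than that fitted for Meis1. It therefore does not show how well differences such as that of Meis1 are found. The ratios and the fits of list genes were alternatives added after the data were seen.

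Libraries were paired by the litter number in their titles. Deviations from group means correlated at -0.16 to 0.37 (median 0.13) over 8 pairs of libraries of the same litter and opposite genotype, and at -0.33 to 0.17 (median -0.02) over 22 pairs of different litters. No replicates were alike within sampling noise (25 pairs, chi-square at least 7.07 times its degrees of freedom). The members and gene lists were chosen with earlier results of these data known. The genes named are all members, list genes past the threshold (up to 3, or else the 2 with the smallest p), the 5 genes most like Meis1 and Meis2, and Gmnn. One gene that this rule names is not reported here. The text also names predicted or overlapping genes and markers.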

Additional observations from a re-analysis of the deposited data

Results flagged for a closer look

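Meis2 in mutant 4 was 142.04 CPM, far from the other 5 mutants at 93.0 to 110 CPM; control 5 of the same litter had 143 CPM. The Meis1 to Meis2 count ratio in mutant 5 was 1.44213, far from the other 5 mutants at 1.02 to 1.14. These are 2 of 22 group comparisons made, and chance flags about 1 in 20.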

How the results depend on the processing

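The call of Meis1 made 1 of 8 members the count; without the low-count filter and with DESeq2 it was 2, and without the replicate block, with either index as covariate and without litter A, B, C or D it was 0. Leaving out 1 library gave 0 to 1. For all genes 345 became 1566 without the filter, 550 with a filter of 1 CPM in 5 libraries, 1194 with DESeq2, 13 without the replicate block, 2 with the T-run index, 2 with the distal Hox index, 9, 3, 1 and 148 without litters A to D, and 1 to 850 leaving out 1 library. Between litters 2 members passed without the filter. The share of all genes in that fit is not given here, so this count is not a result about the members. The direction of Meis1, Pbx2 and Pknox2 held in each of 24 fits. Log2 fold changes that reversed were Meis2 at 0.052 and Pbx4 at 0.00079 (distal Hox index), Meis3 at 0.045, Pknox1 at 0.050, Mkx at 0.031 and Crebbp at 0.024 (T-run index), Pbx3 at -0.043 without litter B and -0.014 without D, and Pbx4 at 0.10 without B. Leaving out 1 library gave -0.043 to 0.050 for Pbx3 and -0.15 to 0.10 for Pbx4. Within-litter differences that reversed were Meis2 at 0.020 without litter D, Meis3 at 0.0048 without A, Pbx3 at -0.021 and Pbx4 at 0.075 without B, with 1-library ranges of -0.15 to 0.020, -0.021 to 0.075 and -0.23 to 0.075 for Meis2, Pbx3 and Pbx4. The cause was not tested. The interaction could not be fitted without controls 3, 4 or 5 or mutants 5 or 6. Counts of 31 to 76 reads limit Pbx4.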
